A study of Mus musculus with 6 samples.

Results

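The genes described here are 9 genes of the extracellular matrix and its proteases, read from 56953 features counted in mouse tailbud tissue at embryonic day 9.5. They are the collagen genes Col1a2 and Col15a1, the matrix glycoprotein gene Matn2, the proteoglycan gene Sdc2, Thsd7a and Cped1, the metalloprotease genes Adamts12 and Mmp16, and the protease inhibitor gene Reck. They were chosen by their function and by lying on 3 stretches, on chromosomes 4, 6 and 15, where the names of the features fit the reads counted in them. The values that chose them were the levels of ubiquitously expressed genes on those stretches, and the set was put together with the results of the genotype comparison known. The study compared 3 libraries of wild-type embryos with 3 libraries of Fgfr1 FCPG/FCPG embryos. In this allele, for which the mutant embryos are homozygous, residues that bind effectors of this fibroblast growth factor receptor are changed by point mutations. The question was which transcripts of developing mesoderm change when the canonical signal of the receptor is cut. Columns of the count table carry 10-5 in their names, whereas the labels give embryonic day 9.5. Polyadenylated RNA of microdissected tailbud was sequenced, which the labels describe as holding NMPs and 2 kinds of mesoderm, somitic and intermediate. No other allele or treatment is named for either group. Whether each library came from 1 embryo or from several, and from which litters, was not given in the sources used here, so p-values measure the spread between these libraries, which may in part be technical.

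The extracellular matrix is the network of collagens, glycoproteins and proteoglycans between cells. In the posterior embryo it carries migrating mesoderm, surrounds the forming somites and notochord, and stores growth factors. Heparan sulfate chains of proteoglycans such as syndecans take part in the binding of fibroblast growth factors to their receptors. Metalloproteases at the cell surface and in the matrix cut these proteins, and inhibitors such as Reck restrain them.

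Library totals ran from 16984568 to 27316475 counts, and the 54 counts of the 9 genes ran from 115 to 16417. Of 1349 ubiquitously expressed genes, 432 reached 10 CPM (the CPM unit of edgeR, counts scaled to a common library size). Inside the 3 stretches this held for 46 of 49 such genes (median 188 CPM) and outside them for 386 of 1300 (median 0.619 CPM). All 9 genes also lay on the stretches when the minimum was 20 CPM. The nearest ubiquitous genes, up to 3 on each side, all reached 10 CPM for Col1a2 (4 genes) and for Col15a1, Adamts12, Reck, Sdc2 and Matn2 (6 genes each), and 5 of 6 did for Mmp16, Thsd7a and Cped1. Names are thus not secured gene by gene. Predicted genes overlap Col1a2, Col15a1, Mmp16, Reck, Thsd7a and Cped1 and another transcript overlaps Matn2, and the strand setting of the counting was not given, so their reads could not be separated. The feature named Fgfr1 lay outside the stretches, where wild-type libraries held 29.1, 29.7 and 26.8 CPM and mutant libraries 25.3, 29.2 and 28.8 CPM. Point mutations would not be read from these levels, so they are no check of the genotype labels, and the defining markers of tailbud could not be read either. The 4 Y-linked genes read had means of 146, 236 and 164 CPM in wild-type replicate 1 and mutant replicates 2 and 3. No other library passed 0.150 CPM for them. Both groups thus held libraries with and without Y-linked reads, in unequal numbers. Y-linked and mitochondrially encoded genes were left out of the check of names by ubiquitous genes. Mitochondrially encoded genes took 11.04% to 14.1% of the counts in wild-type libraries and 5.53% to 6.50% in mutant ones. With library sizes that leave these and the erythroid genes out, the calls of the 9 genes were the same, and the part of this difference in the results was not otherwise tested.

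In the mutant 3 of the 9 genes rose, namely Col1a2, Reck and Thsd7a, and 0 fell (edgeR quasi-likelihood test, Benjamini-Hochberg adjusted p below 0.05 over 14550 features). At an unadjusted p below 0.05, edgeR gave 4 higher and 0 lower genes, the DESeq2 Wald test 4 and 0, and limma-voom 3 and 0. The share of all features at this unadjusted threshold is not given here, so these counts have no background to be read against. At the adjusted threshold, 4.25% of all features were called higher and 3.67% lower, and over the 619 tested features of the stretches 9.21% and 4.2%. The median log2 fold change of the 9 genes was 0.40, against 0.08 over the stretches and -0.01 over all features. In 4 of the 9, Col1a2, Reck, Thsd7a and Matn2, all mutant libraries lay above all wild-type libraries, which was so for 15.8% of all features and 23.7% of those on the stretches. In 0 of the 9 all mutant libraries lay below all wild-type libraries, against 16.1% of all features and 13.9% of those on the stretches. These shares are given as description, since the genes were proposed with earlier results of these data known. In bulk tissue, more cells of a type and more RNA per cell cannot be told apart.

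**Figure D1:**
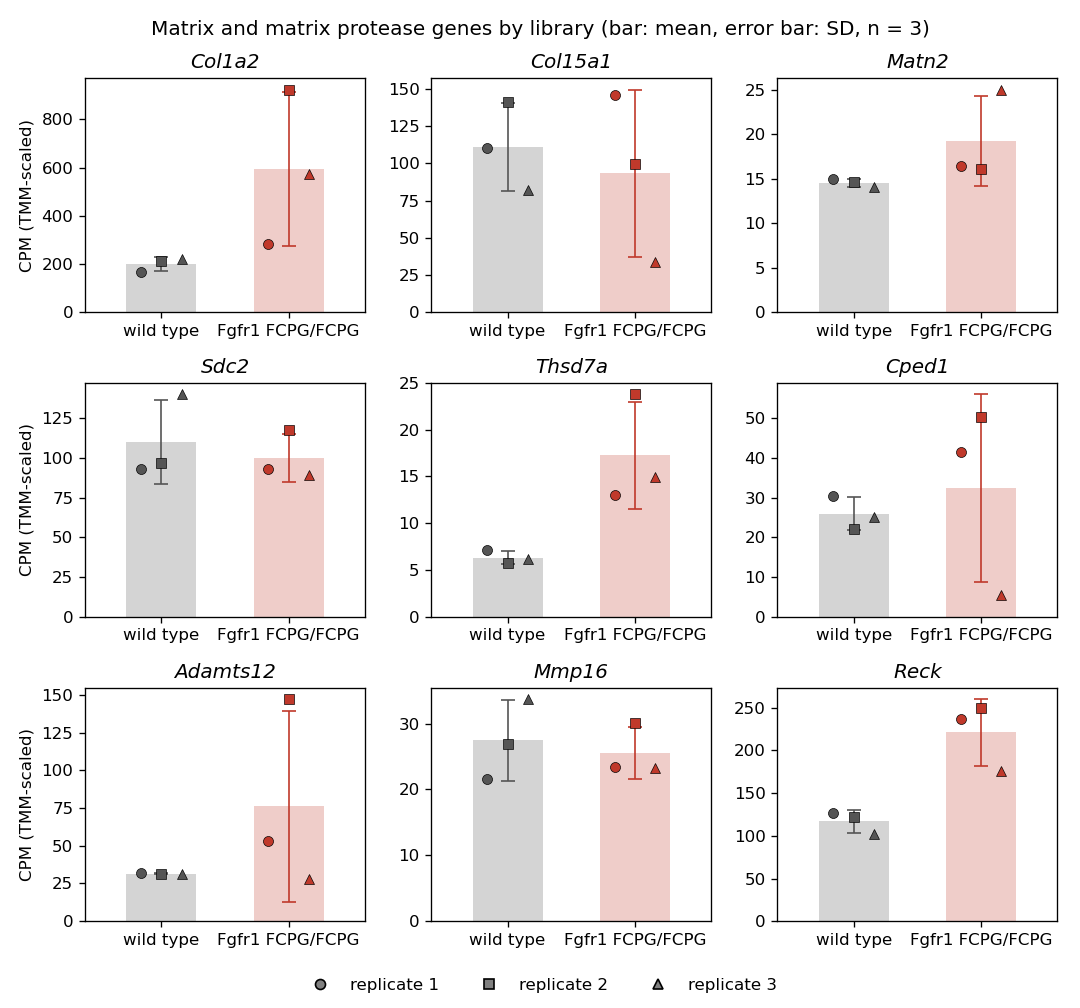
Level of each of the 9 genes in every library, in CPM on axes that start at 0, for wild type (grey) and Fgfr1 FCPG/FCPG (red); bars are means, error bars SD (n = 3), and the symbol gives the replicate number. Col1a2, Reck, Thsd7a and Matn2 show no overlap between the groups, while mutant replicate 2 stands far above the others in Adamts12 and mutant replicate 3 far below in Cped1, at 5.48 CPM.

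Col1a2 encodes a chain of type I collagen, the main fibrillar collagen of connective tissue. Wild-type replicates 1 to 3 held 167, 211 and 219 CPM of it, and mutant replicates 1 to 3 held 283, 924 and 574 CPM. All mutant libraries were above the wild-type ones, replicate 1 by the smallest margin, and they were 1.42, 4.64 and 2.88 times the wild-type mean. The log2 fold change was 1.57 ± 0.36 (SE, adjusted p = 0.0364 by edgeR), and the authors' deposited table gives 1.58 with an adjusted p of 0.00922. Without mutant replicate 2 it shrank to 1.12 and the call was lost (adjusted p = 0.0550 by edgeR), while without mutant replicate 1 or 3 it was 1.92 and 1.61 and the call stayed (adjusted p = 0.0127 and 0.0441). Leaving out wild-type replicate 1, 2 or 3 ended the call too (edgeR adjusted p = 0.0954, 0.140 and 0.111), at fold changes of similar size, 1.47, 1.62 and 1.66 on the log2 scale, and fewer features of the whole table were then called. It was also lost with limma-voom, at 1.41 (adjusted p = 0.0567), and with a term for embryo sex, at 1.28 (adjusted p = 0.135 by edgeR). Among libraries with Y-linked reads, 167 CPM in wild type stood against 924 and 574 CPM in the mutant, and among those without them 211 and 219 CPM against 283 CPM, so the direction was the same in both but the sizes differed.

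Col15a1, the other collagen, encodes a chain of a collagen of basement membrane zones that carries chondroitin sulfate. Wild-type libraries held 110.3, 141 and 81.9 CPM, and mutant libraries 146, 99.8 and 33.8 CPM, in the order of their replicate numbers here and for the genes that follow. The groups overlapped, with mutant replicate 1 the highest of all libraries and mutant replicate 3 the lowest. The mutant differed from wild type by -0.25 ± 0.44 on the log2 scale (SE, adjusted p = 0.763 by edgeR), and without mutant replicate 3 it turned to 0.16 (adjusted p = 0.720). The 2 collagen genes therefore took different orders in the mutant libraries: Col1a2 was lowest in replicate 1, where Col15a1 was highest.

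Matn2 encodes matrilin, an adaptor protein of filamentous matrix networks. Wild-type levels were 14.9, 14.6 and 14.1 CPM, and mutant levels 16.5, 16.2 and 25.1 CPM. The wild-type libraries were close together and mutant replicate 3 stood apart from the other 2 mutants. Its log2 fold change, 0.40 ± 0.18 (SE), did not pass the threshold (adjusted p = 0.202 by edgeR).

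Sdc2 encodes a syndecan, a heparan sulfate proteoglycan that spans the cell membrane. Levels of 93.2, 96.5 and 140.1 CPM were measured in wild-type libraries and of 93.2, 118 and 89.3 CPM in the mutant. The groups overlapped, with wild-type replicate 3 the highest of all libraries and mutant replicate 3 the lowest. On the log2 scale the mutant differed by -0.14 ± 0.18 (SE, adjusted p = 0.671 by edgeR), with 0.08 when wild-type replicate 3 was left out.

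Thsd7a encodes a membrane protein with thrombospondin repeats, known from endothelial cells and kidney podocytes. The wild-type libraries held 7.08, 5.74 and 6.16 CPM and the mutant libraries 13.1, 23.8 and 14.9 CPM. Every mutant library was well above every wild-type library, and replicate 2 was again the highest. Its log2 fold change was 1.44 ± 0.24 (SE, adjusted p = 0.0132 by edgeR), and the authors' deposited table gives 1.45 with an adjusted p of 3.12e-07. Leaving out wild-type replicate 2 gave 1.38 and ended the call (edgeR adjusted p = 0.0785), as did leaving out wild-type replicate 3, with 1.43 (edgeR adjusted p = 0.0567).

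Cped1 encodes a protein with cadherin-like and PC-esterase domains. The wild-type libraries were at 30.4, 22.2 and 25.2 CPM, and the mutant ones at 41.4, 50.2 and 5.48 CPM. Mutant replicates 1 and 2 stood above all wild-type libraries and mutant replicate 3 below all of them, at 0.211 times the wild-type mean. That low value rested on 144 counts, with an exact Poisson interval (95%) of 4.62 to 6.46 CPM that covers counting error only. On the log2 scale the mutant was at 0.31 ± 0.61 (SE) relative to wild type, which did not pass (adjusted p = 0.791 by edgeR). Without mutant replicate 3 it was 0.83 and passed (adjusted p = 0.0206), and without mutant replicate 2 it was -0.14 (adjusted p = 0.919).

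Adamts12 encodes a secreted metalloprotease with thrombospondin repeats. In wild type it stood at 31.6, 31.5 and 31.0 CPM, a coefficient of variation of 0.972%. The mutant replicates 1 to 3 were at 52.9, 148 and 27.8 CPM, so that replicates 1 and 2 were above and replicate 3 below every wild-type library. Its log2 fold change of 1.27 ± 0.50 (SE) did not pass (adjusted p = 0.158 by edgeR). It passed without mutant replicate 3, at 1.69 (adjusted p = 0.0259), and was 0.37 without mutant replicate 2 and uncalled (adjusted p = 0.374). It was also called when the fit used no low-count filter, at 1.29 ± 0.13 (SE, adjusted p = 2.28e-19 by edgeR), which made 4 of the 9 genes called. The SE in that fit was far below the 0.50 of the main fit, although the mutant libraries lay on both sides of wild type. This call therefore does not reflect the spread seen between the mutant libraries.

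Mmp16 encodes a membrane-anchored matrix metalloprotease. Wild-type libraries held 21.6, 26.9 and 33.8 CPM, and mutant ones 23.4, 30.1 and 23.2 CPM, within the wild-type range in all mutant libraries. It differed between the groups by -0.10 ± 0.18 on the log2 scale (SE, adjusted p = 0.763 by edgeR) and turned to 0.08 without wild-type replicate 3. Neither protease gene passed the test.

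Reck encodes an inhibitor of matrix metalloproteases that is anchored to the cell membrane by a lipid. Levels of 127, 122 and 102 CPM over the wild-type libraries stood against 237, 250.1 and 176 CPM in the mutant. All mutant libraries lay above all wild-type libraries, at 2.03, 2.14 and 1.51 times the wild-type mean. Reck rose by 0.92 ± 0.15 on the log2 scale (SE, adjusted p = 0.0120 by edgeR), and the authors' deposited table gives 0.93 with an adjusted p of 4.06e-07. Here too the call ended when wild-type replicate 2 was left out, at 0.95 (edgeR adjusted p = 0.0678), or wild-type replicate 3, at 0.84 (edgeR adjusted p = 0.0513). The term for embryo sex and limma-voom both left Reck and Thsd7a past the threshold.

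The promoters of the 3 genes that rose are shown, since they are the sequences next to the starts of the transcripts that changed. RefSeq promoters of build GRCm38.p6, an older build than the mm39 named in the submitters' processing notes, matched 6 of the 9 genes; they run from 250 bases before to 50 bases after the start. Capitals mark matches, on either strand, to 6 motifs: the TATA box TATAAA, the CCAAT box CCAAT, the GC box GGGCGG, the AP-1 site TGANTCA, the ETS core CCGGAA and the SMAD box CAGAC, of which none contains another. The sequences are printed 5′ to 3′ on the strand of the gene. Col1a2 lies on the plus strand at chr6:4505368-4505667, Reck on the plus strand at chr4:43875280-43875579 and Thsd7a on the minus strand at chr6:12749204-12749503.
Col1a2: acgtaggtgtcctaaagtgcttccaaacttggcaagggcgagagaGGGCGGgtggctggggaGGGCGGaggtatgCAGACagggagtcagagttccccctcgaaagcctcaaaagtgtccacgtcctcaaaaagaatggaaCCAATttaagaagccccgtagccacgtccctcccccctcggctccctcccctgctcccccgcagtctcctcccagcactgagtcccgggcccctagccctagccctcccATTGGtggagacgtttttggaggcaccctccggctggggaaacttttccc
Reck: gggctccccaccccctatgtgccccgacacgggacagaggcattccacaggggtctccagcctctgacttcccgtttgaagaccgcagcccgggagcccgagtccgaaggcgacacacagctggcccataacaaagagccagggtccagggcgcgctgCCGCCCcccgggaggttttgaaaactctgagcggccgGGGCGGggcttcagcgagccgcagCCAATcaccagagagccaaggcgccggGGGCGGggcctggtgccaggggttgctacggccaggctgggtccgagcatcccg
Thsd7a: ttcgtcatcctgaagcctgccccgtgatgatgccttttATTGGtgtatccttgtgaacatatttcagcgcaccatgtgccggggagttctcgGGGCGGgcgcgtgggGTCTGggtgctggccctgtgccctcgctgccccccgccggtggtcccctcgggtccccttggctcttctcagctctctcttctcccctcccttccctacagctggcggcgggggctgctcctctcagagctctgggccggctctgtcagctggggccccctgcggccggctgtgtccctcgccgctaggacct
The Col1a2 window held 2 CCAAT boxes, the upper one 109 bases before the start, 2 GC boxes and 1 SMAD box. That of Reck held 1 CCAAT box and 3 GC boxes, and that of Thsd7a 1 CCAAT box, 1 GC box and 1 SMAD box. Of 32851 promoters of the same length, 37.4% held a CCAAT box, 35.7% a GC box and 49.6% a SMAD box. No match to the TATA box, the AP-1 site or the ETS core was in these 3 windows, against 13.6%, 7.81% and 14.9% of all promoters. Of the uncalled genes with a window, Col15a1 held 1 SMAD box, Cped1 1 GC box and 1 SMAD box, and Adamts12 none of the 6 motifs. These are matches of letters and not binding sites.

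Each gene was then set beside Col1a2 across the mutant libraries. Mutant replicate 2 was the highest mutant library in Col1a2 and in 6 of the other 8 genes: Thsd7a, Cped1, Adamts12, Mmp16, Sdc2 and Reck. The exceptions were Col15a1, highest in replicate 1, and Matn2, highest in replicate 3. Among 368 protein-coding genes of the stretches with a mean of at least 5 CPM, replicate 2 was the highest mutant library in 45.4%. The whole order of Col1a2, with replicate 2 above replicate 3 above replicate 1, was seen in 1 of the other 8 genes, Thsd7a, and in 16.3% of those 368 genes. Replicate 3 was the lowest mutant library in 6 of the 9 genes, all but Col1a2, Thsd7a and Matn2, and in 45.9% of those 368 genes. So most of the genes had their highest mutant level in replicate 2, as Col1a2 did, but not its second-highest level in replicate 3. This is a likeness of rank alone. In Sdc2 and Mmp16 replicate 2, at 118 and 30.1 CPM, lay below wild-type replicate 3, at 140.1 and 33.8 CPM. In Reck replicates 2 and 1, at 250.1 and 237 CPM, had overlapping exact Poisson intervals (95%). The counts for the 9 genes were the same, and the shares over the 368 genes within 1 percentage point, with DESeq2 size factors and with library sizes that leave out mitochondrially encoded and erythroid genes.

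**Figure D2:**
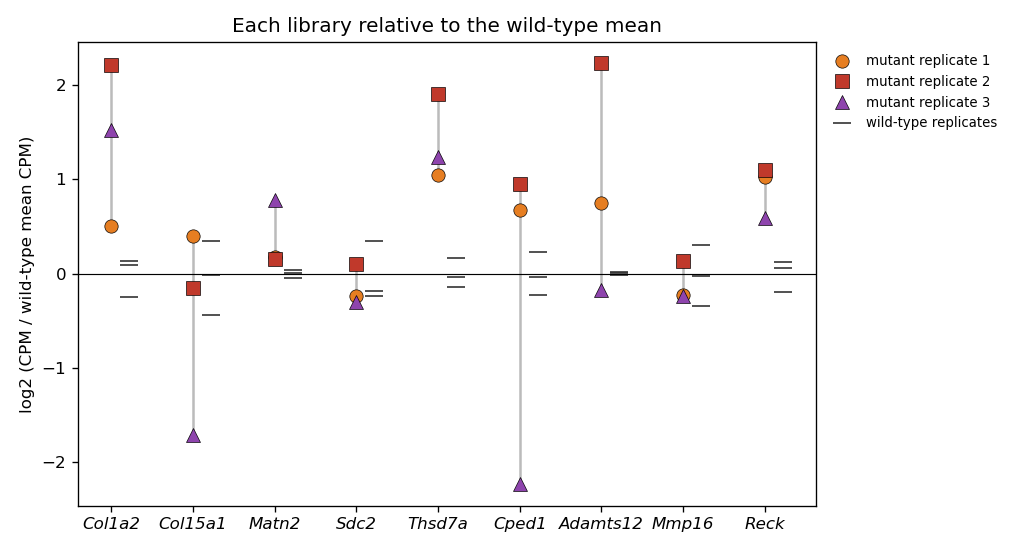
Level of each mutant library relative to the wild-type mean, as log2 of the ratio of CPM, with the wild-type replicates as dashes beside it and a grey line over the range of the mutants. Mutant replicate 2 (squares) is the highest mutant in 7 of the 9 genes, and mutant replicate 3 (triangles) is high in Col1a2 and far below wild type in Col15a1 and Cped1.

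As a measure of likeness, Pearson's r with Col1a2 was taken over the 6 libraries on log2 CPM after the mean of each group was subtracted, so that the genotype difference does not enter. It is a description over few libraries that share depth and composition. Thsd7a had the highest value, 0.771, followed by Mmp16 at 0.608, Sdc2 at 0.51 and Adamts12 at 0.4996. Matn2, Cped1 and Reck stood near 0, at 0.048, -0.059 and -0.071, and Col15a1 was at -0.342. Over 367 genes of the stretches the median was 0.058 with quartiles of -0.360 and 0.522, so that Thsd7a and Mmp16 were above the upper quartile. Without subtracting the group means, Reck had 0.737 with Col1a2 and Thsd7a 0.921, values that hold the rise of all of them in the mutant.

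Other pairs of the 9 genes had higher values of this r than any pair with Col1a2. Mmp16 and Sdc2 had 0.934, Col15a1 and Reck 0.880, and Cped1 had 0.866 with Col15a1, 0.859 with Reck and 0.832 with Adamts12, and -0.976 with Matn2. Over 367 genes of the stretches r with Cped1 had a median of 0.254 and quartiles of -0.372 and 0.661, and 48 of them reached the value of Adamts12. Adamts12 had 0.4996 with Col1a2, below the upper quartile of 0.522 for r with Col1a2. Its values were 0.782 with Thsd7a, 0.744 with Reck, 0.580 with Col15a1 and -0.807 with Matn2. Mutant replicate 3 was the lowest mutant library in Cped1, Col15a1, Reck and Adamts12 and the highest in Matn2. Reck differed from Cped1, Col15a1 and Adamts12 in that its level in replicate 3 was still above all wild-type libraries. These pairs were picked after their values were seen.

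The 6 other genes of the stretches most like Col1a2 by the same r were Igfbpl1 (0.9501), Unc13b (0.935), Copg2 (0.925), Vps13b (0.920), Abca1 (0.919) and Calu (0.916), and none of them encodes a structural matrix protein. Copg2, Abca1 and Calu left the stretches with the minimum of 20 CPM. Unc13b, which primes synaptic vesicles for release, stood at 66.6, 111 and 87.9 CPM in mutant replicates 1 to 3 against 57.6 ± 1.73 CPM (SD, n = 3) in wild type. Igfbpl1, a relative of the binding proteins of insulin-like growth factors, took the same order at 29.3, 79.8 and 59.9 CPM but lay below its wild-type level of 84.9 ± 2.87 CPM (SD, n = 3). Neither passed the test between genotypes (adjusted p = 0.0619 for Unc13b and 0.252 for Igfbpl1 by edgeR), and a like order is built into their choice by r.

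The spread between mutant libraries was wide in several of the genes. The coefficient of variation over the mutant libraries was 83.0% for Adamts12, 73.2% for Cped1, 60.6% for Col15a1 and 54.1% for Col1a2, ranks 7, 11, 17 and 24 from the top among the 368 genes of the stretches. It was 33.3% for Thsd7a, 26.3% for Matn2 and 17.8% for Reck, and 15.3% for both Mmp16 and Sdc2. The median over the 9 genes was 33.3%, against 12.1% over the 368 genes. Over the wild-type libraries these medians were 14.1% and 7.82%. The close agreement of Adamts12 in wild type lay within counting error: wild-type replicate 1 alone, at 849 counts, had an exact Poisson interval (95%) of 29.5 to 33.8 CPM.

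Markers of other cell types were read beside these values where they lay on the stretches. The readable endothelial markers, Cav1 and Cav2, summed to 14.4 to 20.8 CPM in wild type and to 67.7, 201 and 26.9 CPM in mutant replicates 1 to 3, replicate 2 above 1 above 3. This order was seen in 5 of the 9 genes, Adamts12, Cped1, Reck, Sdc2 and Mmp16, and in 29.1% of the 368 genes of the stretches. Part of it lay within counting error, where exact Poisson intervals (95%) overlapped. This held for mutant replicates 1 and 3 in Mmp16 (23.4 and 23.2 CPM) and Sdc2 (93.2 and 89.3 CPM). It also held for mutant replicates 1 and 2 in Reck (237 and 250.1 CPM). Of Cav1 and Cav2, only Cav1, the main protein of caveolae, rose (adjusted p = 0.0371 by edgeR). The 5 neural markers summed to 928 to 1061 CPM in wild type and to 1124, 1365 and 979 CPM in the mutant, and 1 of them rose, Pou3f2, a transcription factor of neural progenitors, at 49.8, 306 and 20.8 CPM in the mutant replicates. Epha7, an ephrin receptor, stood at 57.8, 159 and 28.0 CPM there against 36.2 ± 2.39 CPM (SD, n = 3) in wild type and did not pass (adjusted p = 0.201 by edgeR). Pou3f2 and Epha7 had the order of the endothelial sum, but the other 3 neural genes did not: Basp1 was highest in mutant replicate 1 (894, 812 and 721 CPM), Fut9 stood at 8.52, 11.9 and 9.52 CPM and Ptprz1 was highest in replicate 3. Of the mesenchyme list, 4 genes lay on the stretches: Col1a2 itself and the transcriptional corepressor gene Runx1t1 rose, the homeobox gene Dlx6 fell, and its neighbour Dlx5 did not pass (adjusted p = 0.148 by edgeR). Of the erythroid markers, Hemgn and Tspan33 fell, Tmod1 did not pass and Bpgm was at or below 0.112 CPM in every library. Tspan33 and Bpgm left the stretches with the minimum of 20 CPM, so their names are less sure. The erythroid markers summed to 127 to 200.02 CPM in wild type and to 41.4 to 56.3 CPM in the mutant. The epithelial marker Esrp1, a splicing factor, ranged from 136 to 174 CPM over wild-type libraries and from 71.5 to 126 CPM over mutant ones, and was lowest in mutant replicate 2 (adjusted p = 0.0730 by edgeR). Wnt2, the only readable gene of the allantois and yolk sac list, stood at 0.428 to 7.79 CPM and at 22.5 to 37.5 CPM (adjusted p = 0.0584 by edgeR). The part of these cell types in the results on matrix genes was not tested.

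**Figure D3:**
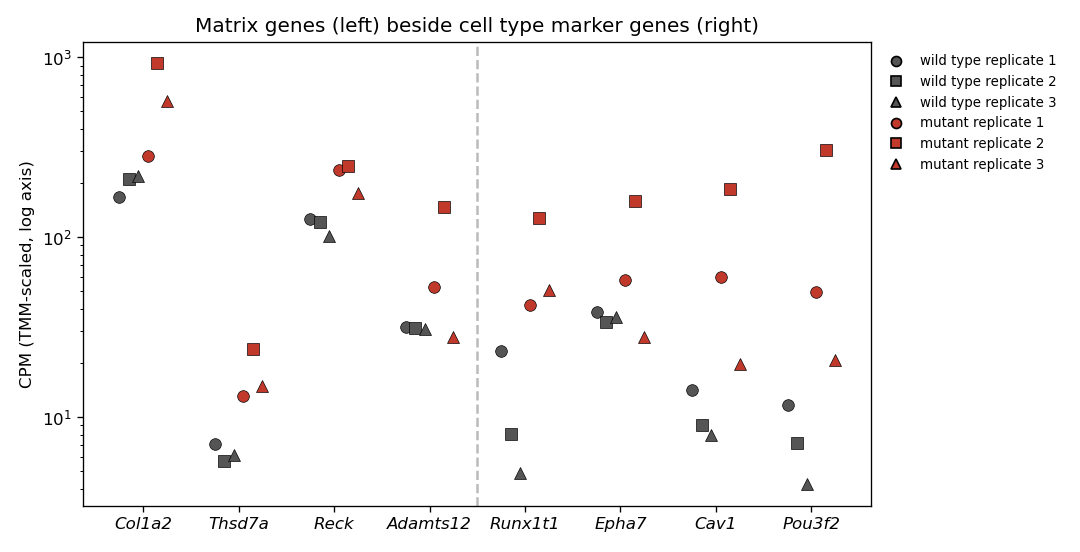
Levels in CPM on a log axis of Col1a2, Thsd7a, Reck and Adamts12 (left of the dashed line) and of Runx1t1, Epha7, Cav1 and Pou3f2 (right), in each wild-type library (grey) and mutant library (red). The genes shown are a selection. Mutant replicate 2 (red squares) is the highest library in all 8 of them, and mutant replicate 3 (red triangles) is below mutant replicate 1 in Reck, Adamts12, Epha7, Cav1 and Pou3f2. Mutant replicate 2 was not the highest mutant library in Col15a1, Matn2, Ptprz1, Basp1, Dlx5, Dlx6, Esrp1, Hemgn and Wnt2, which are not shown.

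A wider list of matrix genes had 22 members on the stretches, the 9 genes included, of which 17 passed the filter on low counts. Of these, 4 rose and 1 fell, with a median log2 fold change of 0.31. Those that rose include Col1a2, Reck and Thsd7a, which were chosen with results known. Among the 8 tested genes outside the 9, 1 rose, 1 fell and the median was 0.03. At the same threshold 4.25% of all features rose and 3.67% fell, and 9.21% and 4.2% of those on the stretches. With so few genes, the counts outside the 9 cannot be told from these shares. The gene that rose was Sgce, an imprinted gene for a sarcoglycan that links the cell to the matrix, from 105 ± 3.40 to 191 ± 31.6 CPM (SD, n = 3), which is 0.87 ± 0.12 on the log2 scale (SE, edgeR adjusted p = 0.00872). Tfpi2, an inhibitor of serine proteases that is deposited in the matrix, fell from 6.28 ± 1.40 to 2.63 ± 0.503 CPM (SD, n = 3), which is -1.25 ± 0.25 on the log2 scale (SE, edgeR adjusted p = 0.0236). The call of Sgce was lost without wild-type replicate 2 (0.86, edgeR adjusted p = 0.0618). That of Tfpi2 was lost without wild-type replicate 2 or 3 or mutant replicate 2 (edgeR adjusted p = 0.119, 0.0888 and 0.0527) and with the replicate block (edgeR adjusted p = 0.0516), with log2 fold changes from -1.10 to -1.24, and its level is too low for a filter of 5 CPM in 3 libraries. Reck rose and Tfpi2 fell, each subject to these limits.

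The other tested genes of the list did not pass. Ptprz1, a receptor phosphatase that carries chondroitin sulfate, had wild-type levels of 86.5, 78.8 and 57.4 CPM and mutant levels of 114, 77.4 and 199 CPM, with its highest level in mutant replicate 3. C1qtnf3, a secreted protein with a collagen-like domain whose gene lies close to Adamts12, stood at 3.09, 2.21 and 1.55 CPM and at 2.74, 12.05 and 1.56 CPM, high in mutant replicate 2 alone. Kcp, a secreted modulator of bone morphogenetic proteins, differed by -0.52 ± 0.29 on the log2 scale (SE, adjusted p = 0.309 by edgeR). Svep1, a large adhesion protein of the matrix, had a log2 fold change of 0.01, Impad1, a phosphatase needed for sulfated glycosaminoglycans, 0.04, and the sialomucin gene Podxl -0.07. Svep1, Kcp and Podxl left the stretches with a minimum of 20 CPM, so their names are less sure. Tgfbr1, a receptor of transforming growth factor beta, which induces collagen genes, had a wild-type level of 716 ± 49.7 CPM and a mutant level of 720.4 ± 74.3 CPM (SD, n = 3; adjusted p = 0.963 by edgeR). Col28a1 and the hyaluronidase genes Hyal4, Hyal5, Hyal6 and Spam1 were not tested, with at most 1.21 CPM in any library.

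**Figure D4:**
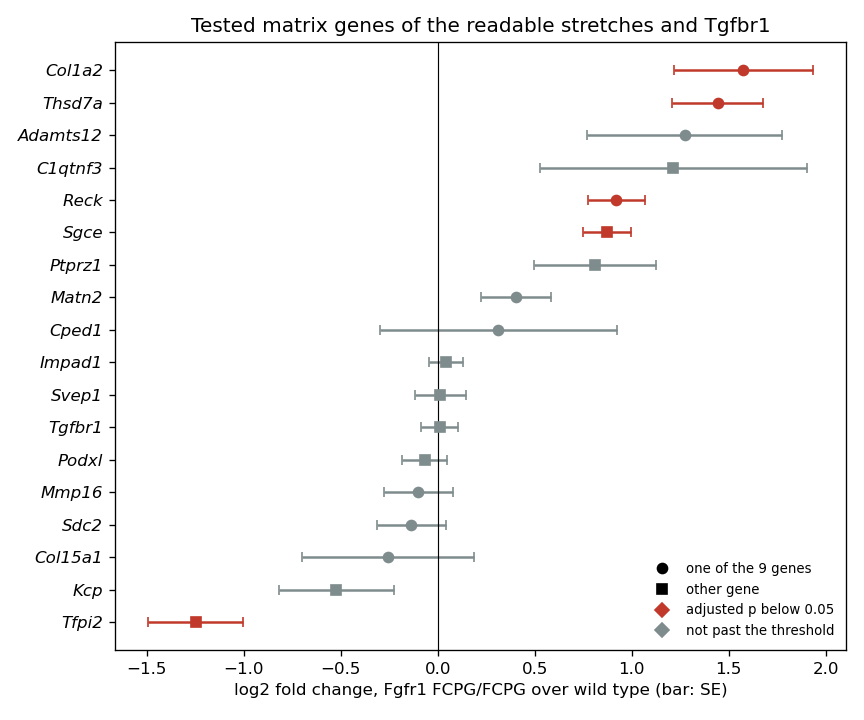
Log2 fold change of mutant over wild type with its SE for the 17 tested matrix genes of the stretches and Tgfbr1; circles are the 9 genes described here, squares other genes, and red marks an adjusted p below 0.05. Col1a2, Thsd7a, Reck and Sgce lie on the right and Tfpi2 on the left, while Cped1, Adamts12, C1qtnf3 and Col15a1 have wide errors.

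Genes next to those that rose were read from the same fit. Around Col1a2, the nearest tested protein-coding genes were Bet1, with a log2 fold change of 0.02, and Casd1, with 0.35 (adjusted p = 0.927 and 0.119 by edgeR). Beside Reck lay Spaar, at most 0.838 CPM in any library, and Glipr2, with -0.39 (adjusted p = 0.254). Thsd7a lay between Phf14, which rose by 0.33 on the log2 scale (adjusted p = 0.0371), and Tmem106b, with 0.07 (adjusted p = 0.763). Mmp16, which did not pass, lay between Ripk2 and Cpne3, which rose by 0.50 and 0.42 on the log2 scale (adjusted p = 0.0234 and 0.0403 by edgeR). Matn2, which did not pass either, lay beside the ribosomal protein gene Rpl30, which rose by 0.41 (adjusted p = 0.0124 by edgeR). Of genes at the second place, Sgce near Col1a2 rose. Hrct1 near Reck rose by 2.40 on the log2 scale (adjusted p = 0.0316 by edgeR) from 0.183 to 0.984 CPM. Near genes that did not pass, Tspan12 by Cped1 rose by 0.53 (adjusted p = 0.0401 by edgeR). Osgin2 near Mmp16 fell by 0.53 (adjusted p = 0.0111 by edgeR). Differences between these genes and their neighbours were not tested.

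Levels between the genes were compared per kilobase of annotated exon. The length was that of all exons of a gene in GENCODE M21 merged, 3527 bases for Sdc2 and 12426 bases for Col1a2. The annotation used for counting was not given, so the order between genes holds only for these lengths. In wild type Sdc2 was highest, at 31.2 ± 7.43 CPM per kilobase, followed by Reck at 24.4 ± 2.78, Col15a1 at 17.5 ± 4.69 and Col1a2 at 16.04 ± 2.27 CPM per kilobase (SD, n = 3). The ranges of each neighbouring pair in this order overlapped. Mmp16, Cped1 and Adamts12 formed a lower group at 3.16 ± 0.702, 3.13 ± 0.504 and 2.87 ± 0.028 CPM per kilobase, with overlapping ranges, and Matn2 was at 2.32 ± 0.070 and Thsd7a at 0.460 ± 0.050 CPM per kilobase. In the mutant Col1a2 and Reck were the highest, at 47.8 ± 25.9 and 46.3 ± 8.24 CPM per kilobase, above Sdc2 at 28.4 ± 4.33 CPM per kilobase. The range of Col1a2 in the mutant libraries, 22.8 to 74.4 CPM per kilobase, overlapped those of Reck and Sdc2.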

How the data were processed

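RNA of 3 wild-type and 3 Fgfr1 FCPG/FCPG tailbud libraries was sequenced after a stranded mRNA preparation, per the labels' protocols. Raw counts for Ensembl gene IDs were deposited by the authors. Bowtie, featureCounts, DESeq2 and DESeq are the tools and mm39 the build in the submitters' processing notes; for versions, annotation and strand setting: not given in the sources used here. In addition, the authors' deposited table holds, per the file headers, a mean normalized signal, log2 fold changes with errors, a Wald score, p-values and adjusted p-values, and was used only where named. IDs were cut to 18 characters and 52029 of 56953 matched a symbol.

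Stretches were found without the genotype. Ubiquitous gene families were laid out in the order of GENCODE M21, an older build, and a hidden Markov model with 2 states (chance of detection at 10 CPM of 0.95 or 0.25, chance of change 0.03) kept runs of at least 6 genes with a posterior above 0.95. Libraries were compared with the edgeR 4.0.16 quasi-likelihood test (R 4.3.3, filterByExpr, TMM, no covariate). CPM values use TMM-scaled library sizes, correlations a prior count of 2. Tested on simulated data of this comparison (14550 features), the fit recovered 88 of 100 changes of 2-fold and 100 of 100 of 4-fold, with 3.09% of calls false. Named genes were the 9 genes, the tested genes of the matrix list (at most 12, by level, and all called ones), the marker lists and the 6 genes most like Col1a2; the 6 motifs, the neighbouring genes and the genes with a pattern like Cped1 were added after values were seen. The 9 genes, the lists and the rules were chosen with earlier results of these data known. Alternatives were DESeq2 1.42.0 size factors and Wald test, limma 3.58.1 voom, 2 other count filters, a replicate block, a term for embryo sex, other library sizes, another prior count, stretches at 20 CPM (added after seeing the data) and each library left out in turn. A left-out library leaves 2 against 3 with a pooled spread.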

Additional observations from a re-analysis of the deposited data

How the results depend on the processing

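With 1 library left out, 66 to 783 features were higher and 63 to 565 lower, against 618 and 534 from all libraries, as were 0 to 5 higher and 0 lower of the 9 genes, and 0 to 6 higher and 0 to 1 lower genes of the matrix list (0 lower without wild-type replicate 2 or 3 or mutant replicate 2). The smallest counts came without wild-type replicate 2, with 0 of the 9 genes called, as also without wild-type replicate 3 (163 and 151 features); the 5 came without mutant replicate 3. Without mutant replicate 1, 327 and 259 features were called, and without wild-type replicate 1, 408 and 415. The DESeq2 Wald test called 967 higher features. Without the low-count filter, which tests 33266 features, 1352 and 1145 features were called and 7 and 2 genes of the matrix list. Errors were far smaller in that fit for genes with a wide spread, with an SE of 0.11 for Col1a2 against 0.36 in the main fit. The term for embryo sex left 273 higher and 264 lower features. With 5 CPM in 3 libraries and with the replicate block, 0 genes of the matrix list were lower, since Tfpi2 left the tested genes or the call. Deviations of libraries with the same number had correlations of -0.035, 0.060 and 0.036. The sources used here give no pairing, and with so few libraries these values cannot decide whether the numbers pair them. The replicate block gave 433 higher and 411 lower features and 3 higher genes of the 9. Cped1, uncalled, turned to -0.29 with limma-voom and to -0.083 with the replicate block. Over the left-out libraries its log2 fold change ran from -0.14 to 0.83, that of Col15a1 from -0.73 to 0.16, of Mmp16 from -0.24 to 0.081, of Sdc2 from -0.26 to 0.084 and of Col1a2 from 1.12 to 1.92. Beyond the change in libraries or features entered, the cause was not tested. DESeq2 size factors and the other library sizes moved no count by more than 1.5 times, and the prior count of 0.5 left the sign of every r of the 8 genes with Col1a2. Depth limits Thsd7a most, with the lowest count of 115.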

Other observations

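Cped1, low in mutant replicate 3 alone, shared its deviations from the group means with genes that are not matrix genes, a look taken after the values were seen. Of the genes on the stretches with a mean of at least 5 CPM, the 6 with the highest Pearson r with Cped1 over the 6 libraries were Il11ra2 (0.997), Tes (0.9956), Gm13305 (0.994), Akirin2 (0.992), Rai14 (0.9901) and Mdfic (0.985). Il11ra2 and Gm13305 belong to a family of near-identical copies of an interleukin receptor gene, whose reads may be shared. Their swings were far smaller than that of Cped1, whose mutant replicates 1 to 3 were 1.596, 1.94 and 0.211 times the wild-type mean: these ratios were 1.40, 1.48 and 1.08 for Tes, a focal adhesion protein, and 0.881, 0.869 and 0.631 for Mdfic, an inhibitor of myogenic factors. All mutant libraries lay above wild type in Tes and Akirin2 and below it in Mdfic, and none of the 6 passed the test between genotypes (edgeR adjusted p from 0.0789 to 0.949).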
